A study of Mus musculus with 13 samples.

Results

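The circadian clock output genes measured here were Per1, Per2, Per3, Dbp, Tef, Nr1d1, Nr1d2, Arntl, Ciart and Bhlhe41, which were chosen by name. All 10 were found among the 25025 genes of both normalized count tables, and all 10 passed the filter on low values, a mean normalized count of at least 10, at both ages. The question was whether these genes, whose transcripts follow the time of day, separated libraries, genotypes or ages in mouse hippocampus.

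In the mammalian clock, the factors BMAL1 (encoded by Arntl) and CLOCK bind E-box sequences and drive transcription of the Per and Cry genes, whose products then inhibit BMAL1 and CLOCK. The same E-boxes drive Nr1d1 and Nr1d2, whose REV-ERB proteins repress Arntl, so that Arntl transcripts peak in antiphase to those of Dbp, Nr1d1 and the Per genes. DBP and TEF are transcription factors that carry the rhythm to D-box sequences in further genes, and the clock of the hippocampus has been linked to time-of-day differences in memory. Per1 is also induced directly by glucocorticoids and by neuronal activity, independently of the E-box loop.

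Bulk RNA was sequenced from whole hippocampi, with 1 library per sample, in 4 groups: wild type C57BL/6 mice of 5 months (n = 4) and 15 months (n = 3), and mice labelled GT/GT, homozygous for a gene trap in Tmem184b, of 5 months (n = 3) and 15 months (n = 3). The trap is carried in every cell of the animal, and controls came from an in-house C57BL/6 colony, in part from the same litters. The groups held both sexes, except the 15-month wild types, which were all female, and sex is not given per library in the labels. At 15 months, and in the difference between ages, an effect of genotype thus cannot be fully told apart from one of sex. The clock time of tissue collection is not given in the sources used here, and the labels name no batch. Where a level fell in bulk tissue, fewer cells of a type and less RNA per cell cannot be told apart.

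The deposited values are normalized counts from which the reads could not be recovered, so no counting error is given. Their sums per library ranged from 28086279 to 32383546 and are what normalization left. Tmem184b checked the labels, with normalized counts of 2329 to 2475 in the 7 wild types and 29.4 to 57.8 in the 6 mutants. The 7 markers of hippocampal neurons summed to 22618 to 23900 in the 5-month wild types against 25362 to 30204 in mutants. At 15 months the sums were 24947 to 26467 in wild types against 27678 to 30557 in mutants. Marker by marker, 6 of the 7 had a positive log2 fold change at 5 months (median 0.13). At 15 months 4 were positive and 3 negative, with a median of 0.03 and a lowest value of -1.27. Of these, 1 passed as lower by the limma test described below. Their mean log2 values overlapped at 15 months, at 11.18, 11.08 and 11.21 in wild types against 10.97, 11.11 and 11.02 in mutants. The 4 astrocyte markers summed to 28104 to 31235 against 37520 to 38821 at 5 months. Taken singly, 3 had a positive and 1 a negative log2 fold change at that age, with a median of 0.22. Only 1 passed as higher, where 2.27% of all genes passed. All 4 oligodendrocyte markers had a negative log2 fold change at 15 months, with a median of -0.59. Of the 4, 3 passed as lower by the same test, where 6.02% of all genes passed. Of the 6 markers of the suprachiasmatic nucleus and hypothalamus, Six6 was listed at 0 in 12 of the 13 libraries, Hcrt in 4 and Oxt in 2, while Lhx1 (1.98 to 13.4), Avp (7.21 to 143) and Vip (238 to 418 normalized counts) were above 0 in every library. The 9 markers of choroid plexus, the ventricular tissue beside the hippocampus, summed to 75419, 3361, 89049 and 167328 in the 4 wild types of 5 months, to 808 to 3128 in the 5-month mutants, to 971 to 2232 in the 15-month wild types, and to 1947, 885 and 29169 in the 15-month mutants. Choroid plexus thus varied with genotype at 5 months, and its part in the results was examined only by leaving out libraries and by its correlation with the 10 genes.

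RefSeq promoter sequences (GRCm38.p6) were held for 9 of the 10 genes, 12 sequences in all. In the 250 bases before each start, both strands were searched for the E-box CACGTG, the variant E-box CACGTT, the D-box TTATGTAA or TTACGTAA, the REV-ERB and ROR core TAGGTCA and the cAMP element TGACGTCA. No hit overlapped another. The stretches that hold a match follow, on the strand of the gene, 5′ to 3′, with the motif in capitals, since they separate genes with E-boxes from Per3.
Ciart, chr3:95882252-95882359, minus strand: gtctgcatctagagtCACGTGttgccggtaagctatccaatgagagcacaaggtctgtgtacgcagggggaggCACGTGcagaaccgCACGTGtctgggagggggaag
Bhlhe41, chr6:145865553-145865588, minus strand: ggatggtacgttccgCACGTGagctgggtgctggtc
Per1, chr11:69098768-69098803, plus strand: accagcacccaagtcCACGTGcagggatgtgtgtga
Tef, chr15:81802531-81802566, plus strand: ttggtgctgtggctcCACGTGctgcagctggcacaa
Tef, chr15:81811261-81811296, plus strand: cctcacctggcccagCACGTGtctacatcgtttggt
Nr1d1, chr11:98775385-98775420, minus strand: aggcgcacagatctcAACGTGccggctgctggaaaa
Per3, chr4:151044801-151044885, minus strand: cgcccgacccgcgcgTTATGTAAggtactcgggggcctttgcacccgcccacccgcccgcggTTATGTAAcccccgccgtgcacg

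The Ciart promoter held 3 copies of the E-box, at 116, 58 and 44 bases before the start, against 0.0609% of the 32851 mouse promoters with at least 3. One copy stood in the Bhlhe41 promoter, in 1 of the 2 Per1 promoters and in each of the Tef promoters, where 6.02% of all promoters hold at least 1. The Nr1d1 promoter held the variant E-box, read on the other strand, which 3.85% of promoters hold. The Per3 promoter held 2 D-boxes and no E-box, against 0.0213% of promoters with at least 2 D-boxes and 0.932% with at least 1. Neither TAGGTCA (2.23% of promoters) nor TGACGTCA (1.55%) was found in any of the 12 sequences, and none of the 5 motifs was found in the windows of Dbp, Nr1d2 and Arntl. A match is a description of letters, not a binding site.

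Levels were compared between genes per kilobase of mean transcript length (GENCODE), in the 4 wild types of 5 months. Tef stood highest, with a mean of 6913 normalized counts per kb. Dbp (2452) and Nr1d1 (2337) came next and overlapped in range, and Per1 followed at 1221. Bhlhe41 (593), Nr1d2 (542) and Ciart (450 per kb) formed a lower set in which neighbours overlapped. Arntl (209), Per2 (194) and Per3 (165 per kb) were lowest, and again neighbours overlapped. The breaks without overlap lay below Tef, below Nr1d1, below Per1 and below Ciart.

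Mutants were set against wild types of the same age with limma on log2(normalized count + 1), with p-values adjusted over all genes tested and changes given with their standard error (SE). None of the 10 genes passed an adjusted p of 0.05 at 5 months, where 2.27% of the 15563 genes tested did, or at 15 months, where 6.02% of 15541 did. At an unadjusted p under 0.05, 3 of the 10 stood out at 5 months, against 20.5% of all genes, and 4 of the 10 at 15 months, against 28.8% of all genes. The median log2 fold change of the 10 genes was -0.09 at 5 months and -0.01 at 15 months, beside medians of 0.00 and 0.02 over all genes tested. Values of all mutants lay outside those of all wild types in 0 of the 10 genes at 5 months (18.5% of all genes) and in 4 of the 10 at 15 months (34.1% of all genes). These counts lie close to or below the shares of all genes.

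**Figure D1:**
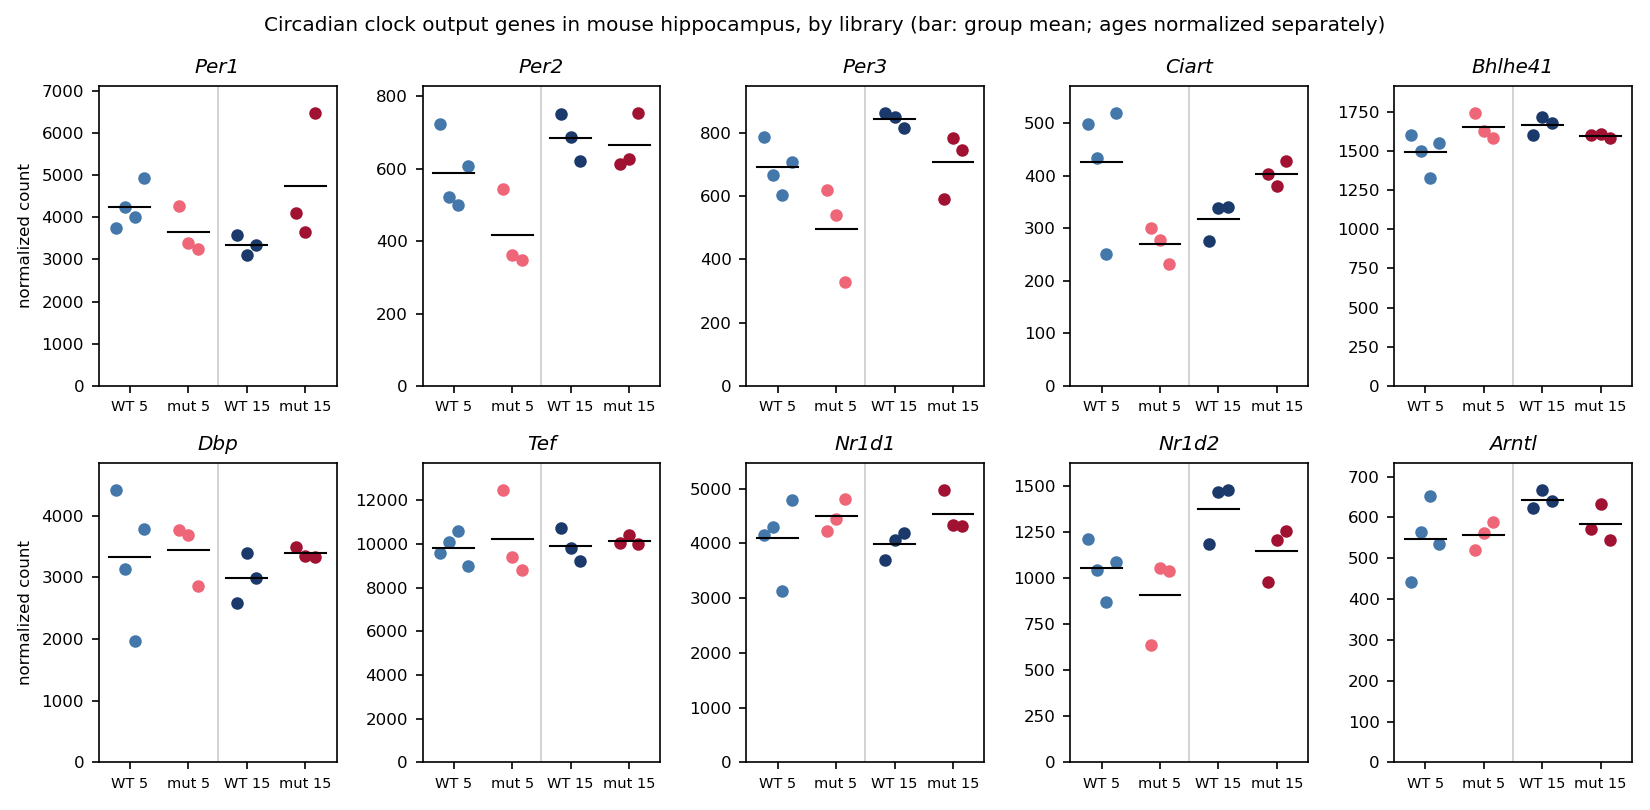
Normalized count (y axis, from 0) of each clock output gene in the 13 libraries, 1 point per library, by genotype (WT, wild type; mut, mutant) and age in months (x axis), with bars at group means; the ages were normalized separately. Per2, Per3 and Ciart tend to sit lower in 5-month mutants than in wild types with overlap, and Ciart and Per1 sit higher in all 3 mutants at 15 months.

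The PERIOD genes encode the repressor proteins of the loop. Per2 (chr1:91415982-91459324) was present at 725, 523, 499 and 607 normalized counts in the 5-month wild types and at 544, 362 and 349 in the mutants. Only mutant replicate 1 reached into the wild type range. The difference was -0.51 ± 0.17 on the log2 scale (SE; limma adjusted p = 0.136), and it passed the threshold without mutant replicate 1, at -0.71 (limma adjusted p = 0.0345, against 0.0345 to 0.999 over the alternatives). At 15 months the wild types had 750, 687 and 622 and the mutants 614, 628 and 753, which overlapped (-0.05, 95% interval -0.30 to 0.21).

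Per3 (chr4:151003652-151044665), a PERIOD gene that the core oscillation does not require, was at 786, 666, 603 and 707 in the 5-month wild types. In the mutants of that age it was at 617, 541 and 329. The mutants were low, with replicate 3 the lowest and replicate 1 inside the wild type range. This was a difference of -0.52 ± 0.19 in log2 (SE; limma adjusted p = 0.149). At 15 months Per3 was at 861, 849 and 814 in the wild types, while the mutants had 590, 784 and 745. All mutants lay below all wild types, but the change of -0.26 ± 0.11 (SE) had a limma adjusted p of 0.164. Correction for GC content and length took it to -0.10.

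Per1 (chr11:69095217-69109960), the PERIOD gene that responds to acute stimuli, was at 3745, 4256, 4015 and 4926 in the 5-month wild types and 4263, 3401 and 3256 in the mutants (log2 fold change -0.22 ± 0.11, SE; limma adjusted p = 0.302). At 15 months the wild types had 3569, 3097 and 3343 and the mutants 4097, 3641 and 6468. All mutants were above all wild types, and mutant replicate 3 stood far above the other mutants. This amounted to 0.46 ± 0.18 in log2 (SE; limma adjusted p = 0.125). Without mutant replicate 3 it was 0.21 (limma adjusted p = 0.109). Without mutant replicate 2 it was 0.63, past the threshold (limma adjusted p = 0.0474, against 0.0474 to 0.298 over the alternatives). Mutant replicate 3 was also the 15-month library with the highest choroid plexus sum.

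Ciart (chr3:95878503-95882251), which encodes a repressor of CLOCK and BMAL1, was at 499, 434, 251 and 518 in the 5-month wild types. The mutants were at 300, 277 and 232. Wild type replicate 3 alone fell within the mutant range. Mutants differed by -0.61 ± 0.23 in log2 (SE; limma adjusted p = 0.157), and it was -0.84 without that wild type (limma adjusted p = 0.0687, against 0.0687 to 0.929 over the alternatives). At 15 months the order turned, with the wild types at 275, 338 and 339 and the mutants at 404, 381 and 427. The mutants were higher without overlap, by 0.35 ± 0.12 in log2 (SE; limma adjusted p = 0.104). Bhlhe41 (chr6:145858243-145865558), which encodes the E-box repressor DEC2, lay between 1328 and 1741 in all 13 libraries. Its log2 fold change was 0.14 at 5 months and -0.06 at 15 months, with intervals of -0.04 to 0.33 and -0.22 to 0.09.

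Dbp (chr7:45705088-45710203), a PAR bZIP activator at D-boxes, spread widely among the 5-month wild types. It was at 4422, 3145, 1965 and 3793 in the 5-month wild types and 3775, 3689 and 2854 in the mutants. Wild type replicate 3 was low and replicate 1 high, and the mutants lay inside their range. The log2 fold change was 0.10, with an interval of -0.39 to 0.59. At 15 months the wild types had Dbp at 2581, 3390 and 2988 and the mutants at 3499, 3345 and 3328 (0.19 ± 0.10, SE; limma adjusted p = 0.218). Tef (chr15:81802421-81826863), a second PAR bZIP activator, lies 2.40 Mb from Tmem184b on the same chromosome. Tef lay between 8797 and 12480 in all libraries, and its log2 fold changes of 0.05 and 0.03 had intervals of -0.21 to 0.30 at 5 months and -0.13 to 0.20 at 15 months.

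The REV-ERB genes encode the repressors of Arntl. Nr1d1 (chr11:98767932-98775333) was at 4147, 4296, 3127 and 4796 in the 5-month wild types and at 4218, 4440 and 4817 in the mutants. The groups overlapped, with wild type replicate 3 the lowest (log2 fold change 0.15, interval -0.13 to 0.43). At 15 months the wild types had 3699, 4061 and 4197 and the mutants 4980, 4330 and 4309. The mutants were higher without overlap, by 0.19 ± 0.08 (SE; limma adjusted p = 0.166). Nr1d2 (chr14:18204054-18239127) went the other way, at 1184, 1465 and 1479 in the 15-month wild types and 977, 1208 and 1257 in mutants (-0.26 ± 0.12, SE; limma adjusted p = 0.183). At 5 months the wild types had Nr1d2 at 1212, 1042, 869 and 1087 and the mutants at 638, 1053 and 1037, with mutant replicate 1 low alone.

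Arntl (chr7:113207465-113314126), the positive arm of the loop, was at 441, 565, 653 and 535 in the 5-month wild types and 519, 561 and 589 in the mutants. Wild type replicate 3, lowest for Dbp, was highest for Arntl, and replicate 1 was the reverse. The genotypes differed by 0.03 on the log2 scale (interval -0.25 to 0.32). At 15 months Arntl counts were 623, 668 and 639 for wild types, against 571, 632 and 546 for mutants (-0.14, interval -0.36 to 0.07). That difference was 0.02 after correction for GC content and length.

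**Figure D2:**
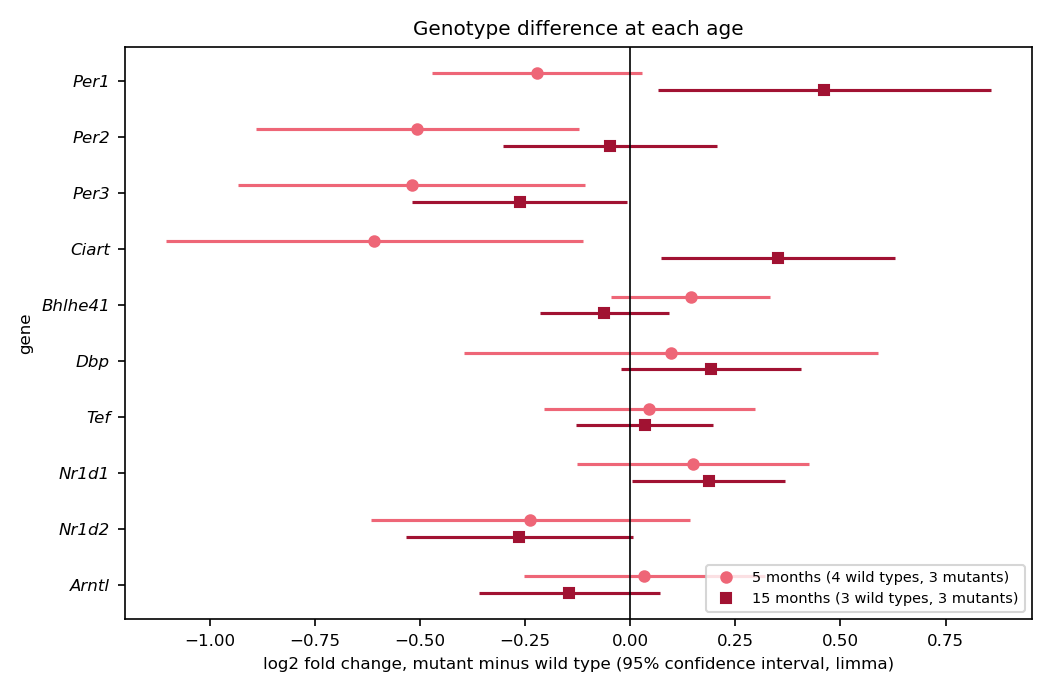
Log2 fold change of mutants against wild types (x axis) for each gene (y axis) at 5 months (circles) and 15 months (squares), with bars for the 95% confidence interval from limma. Ciart and Per1 lie below 0 at 5 months and above 0 at 15 months, and no gene passed an adjusted p of 0.05 at either age.

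A model of all 13 libraries tested whether the effect of genotype differed between 15 and 5 months. None of the 10 genes passed an adjusted p of 0.05, against 1.75% of the 15340 genes tested, and 2 of the 10 had an unadjusted p under 0.05, against 21.1% of genes. These were Ciart, with a difference of 0.96 ± 0.29 on the log2 scale (SE; limma adjusted p = 0.0943), and Per1, with 0.68 ± 0.23 (SE; limma adjusted p = 0.120). Their changes were negative at 5 months and positive at 15 months. Without 5-month wild type replicate 3 the Ciart difference was 1.19 (limma adjusted p = 0.0220, against 0.0220 to 0.203 over the alternatives). Without 5-month mutant replicate 1, the differences of Ciart (1.04, limma adjusted p = 0.0430), Per1 (0.80, limma adjusted p = 0.0389) and Per2 (0.66, limma adjusted p = 0.0391) passed the threshold. Calls over all genes also moved in such fits, from 268 with all libraries to between 34 and 2111 with 1 left out.

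Of the 10 genes, Dbp and Ciart spread most widely among libraries of the same group. The within-group standard deviation of log2 values, pooled over the 4 groups, was 0.33 for Dbp and 0.31 for Ciart, at the 94.7 and 93.6 percentiles of 12084 genes with a mean of at least 100. Per3 (0.26), Nr1d2 (0.26), Per1 (0.25) and Per2 (0.24) stood between the 85.8 and 89.6 percentiles. Nr1d1 (0.17), Arntl (0.15) and Tef (0.15) lay nearer the median gene at 0.14. Bhlhe41, at 0.08, was at the 9.92 percentile.

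In 5-month wild type replicate 3, 8 of the 9 genes other than Arntl were below the mean of their group, and in replicate 4, 8 of the 9 were above it. Centring on a mean of 4 libraries lifts the others where 1 is low. In replicate 3 Dbp and Ciart deviated by -0.70 and -0.71 on the log2 scale, Nr1d1 by -0.37 and Nr1d2 by -0.27. Tef was the exception at 0.11, and Arntl deviated by 0.27. Wild type replicate 1 of the same age deviated the other way for Dbp and Arntl, with Dbp at 0.47, Per2 at 0.32 and Arntl at -0.30. The choroid plexus sums of these libraries are given above, and their part in the deviations was not tested.

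**Figure D3:**
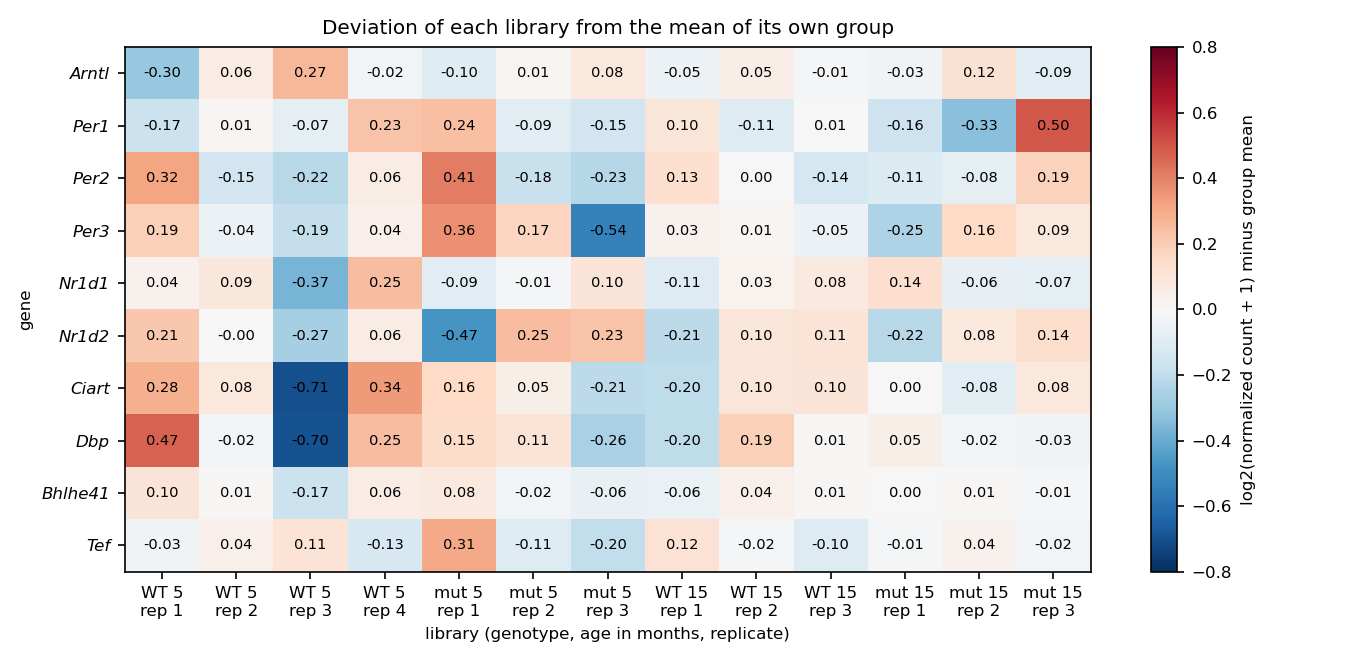
Deviation of each library (columns; genotype, age in months and replicate) from the mean of its own group, in log2(normalized count + 1), for each clock output gene (rows); red is above and blue below the group mean. The column of 5-month wild type replicate 3 is blue for Dbp (-0.70), Ciart (-0.71) and Nr1d1 (-0.37) and red for Arntl (0.27).

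The ratio of Dbp to Arntl, in which the scaling of a library drops out, was 10.03, 5.57, 3.01 and 7.09 in the 5-month wild types. It was 7.27, 6.58 and 4.84 in the mutants of that age, inside the wild type range. At 15 months the wild types had 4.14, 5.08 and 4.67 and the mutants 6.13, 5.29 and 6.10. The 15-month genotypes did not overlap, by a margin smaller than the spread within any group. The range of the 5-month wild types contained all 9 other libraries, so no other group lay outside it. No test was run on this ratio.

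Deviations from group means were correlated for the 45 pairs of genes over the 13 libraries, with an exact permutation of libraries within groups (two-sided, 5184 orders) and Benjamini-Hochberg adjustment. One pair passed an adjusted p of 0.05. Dbp and Bhlhe41 rose and fell together with r = 0.96 (exact permutation p = 5.79e-04, adjusted p = 0.0260) and rho = 0.87 (exact permutation p = 0.00135, adjusted p = 0.0608). Without the 2 libraries farthest in Dbp, r was 0.85, and it was 0.96 at each age taken alone. Correction for GC content and length took it to 0.63 (exact permutation adjusted p = 0.232). Leaving out 1 library kept the call only for 15-month wild type replicates 2 and 3 and 15-month mutant replicates 1 and 2, and lost it for the other 9 libraries, with r between 0.88 and 0.99.

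Ciart moved with both, at r = 0.95 with Dbp (rho = 0.85; exact permutation p = 0.00694 and 0.00714, adjusted p = 0.0625 and 0.0803) and r = 0.94 with Bhlhe41 (rho = 0.91; exact permutation p = 0.00463 and 0.00637, adjusted p = 0.0625 and 0.0803). Without the farthest 2 libraries these were 0.90 and 0.74. Arntl had a negative r with all 9 other genes over the 13 libraries and at 5 months, but r was positive for 6 of 9 at 15 months and for 3 of 9 without the farthest 2 libraries, and rho was 0.02 with both Nr1d1 and Nr1d2. For Per2 with Arntl r was -0.77 (rho = -0.82; exact permutation p = 0.00289 and 0.00367, adjusted p = 0.0625 and 0.0803), -0.67 without the farthest 2 libraries, -0.81 at 5 months and -0.55 at 15 months. For Dbp with Arntl r was -0.78 (rho = -0.50; exact permutation p = 0.0569 and 0.156, adjusted p = 0.240 and 0.417). That relation rested on the 2 libraries farthest in Dbp, both wild types of 5 months, since r was -0.26 without them. It was -0.93 at 5 months and 0.38 at 15 months.

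The PAR bZIP gene Tef did not follow Dbp. Tef was negatively related to Nr1d2, at r = -0.84 (rho = -0.81; exact permutation p = 0.0168 and 0.0145, adjusted p = 0.126 and 0.130), and r was -0.63 without the farthest 2 libraries. It was negatively related to Nr1d1 as well, at r = -0.59 (rho = -0.65; exact permutation p = 0.00675 and 0.0305, adjusted p = 0.0625 and 0.229), and r was -0.77 without the farthest 2.

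**Figure D4:**
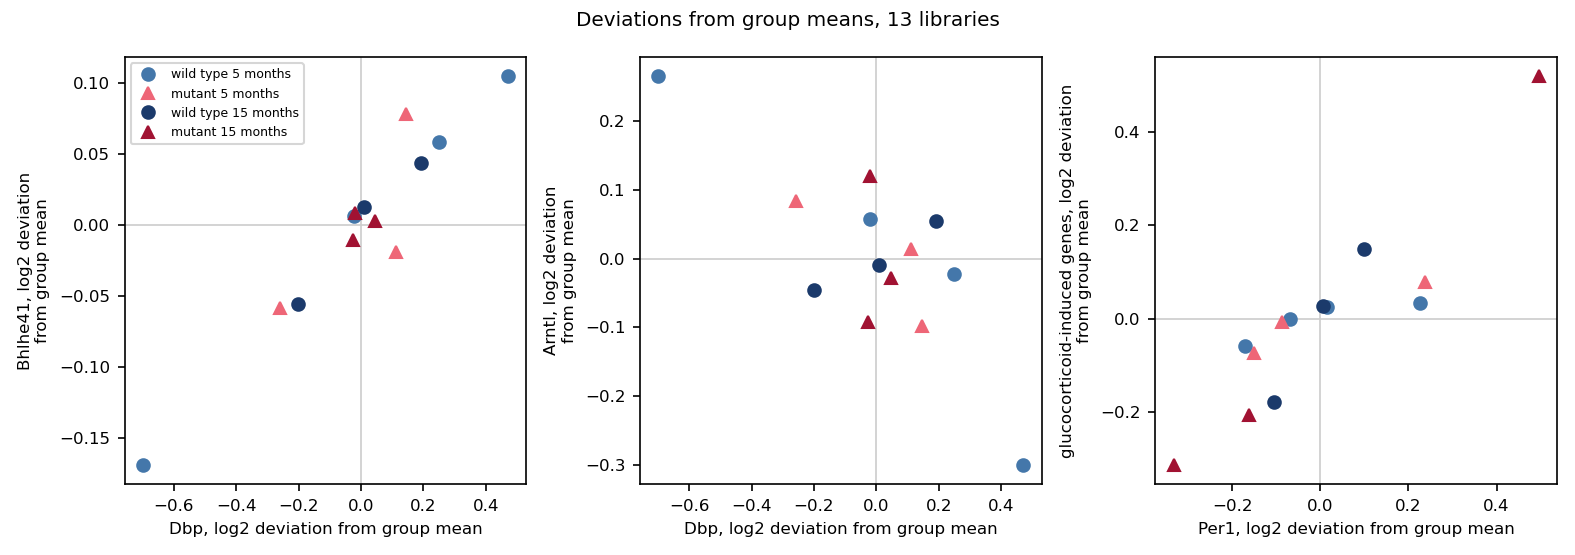
Log2 deviations from group means in the 13 libraries (circles, wild type; triangles, mutant; light, 5 months; dark, 15 months): Bhlhe41 against Dbp (left), Arntl against Dbp (middle) and the mean of the glucocorticoid-induced genes against Per1 (right). Arntl falls as Dbp rises, through 2 wild types of 5 months, and the right panel ends in 15-month mutant replicate 3 at the top.

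The genes were also set beside further gene lists, in a family of 40 relations. These paired the 10 genes with the mean log2 values of glucocorticoid-induced, immediate early, temperature-responsive and choroid plexus genes. Whether these lists also vary with the time of collection could not be tested, since that time is not given. These relations were chosen after the data were seen. A single one passed an adjusted p of 0.05. Per1 rose and fell with the 14 glucocorticoid-induced genes at r = 0.91 (exact permutation p = 1.93e-04, the smallest that 5184 orders can give, adjusted p = 0.00772) and rho = 0.94 (exact permutation p = 1.93e-04, adjusted p = 0.00772). The r was 0.90 at 5 months and 0.99 at 15 months, 0.69 without the 2 libraries farthest in Per1, and 0.72 without 15-month mutant replicate 3. With the choroid plexus list Per1 had r = 0.57 (rho = 0.40; exact permutation p = 0.193 and 0.308, adjusted p = 0.927 and 0.880; 0.29 without the farthest 2), 0.05 at 5 months and 0.996 at 15 months, where the glucocorticoid-induced list had 0.99.

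Sgk1, a kinase of ion transport, followed Per1 at r = 0.91 and Tsc22d3, which encodes the anti-inflammatory factor GILZ, at 0.89. Plin4 (0.86), Zbtb16 (0.85), Ddit4 (0.83), Fkbp5 (0.83) and Errfi1 (0.83) were close, whereas Klf9 (0.13), Pdk4 (-0.16) and the metallothioneins Mt2 (-0.21) and Mt1 (-0.27) were not. These single values over the 13 libraries are descriptions. Per1 had r = 0.91 with temperature-responsive genes (rho = 0.84; exact permutation p = 0.00482 and 0.00791, adjusted p = 0.0965 and 0.158; 0.72 without the farthest 2) and 0.78 with immediate early genes (rho = 0.70; exact permutation p = 0.0241 and 0.0529, adjusted p = 0.322 and 0.705; 0.68 without the farthest 2). Dbp had r = -0.10 with the glucocorticoid-induced list and Ciart 0.08, with exact permutation p of 0.327 and 0.554, adjusted p of 0.927 for both, and rho values in the same family that did not pass.

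At 5 months 2 of the 14 glucocorticoid-induced genes passed as lower in mutants, where 2.27% of all genes passed. Of the 14, 7 had a negative fold change. The wild types had Sgk1 at 1616, 1896, 1916 and 2304 and the mutants at 1226, 1194 and 859, a log2 fold change of -0.83 (limma adjusted p = 0.0278). Tsc22d3 was at 1599, 1612, 1530 and 1608 in the wild types, against 1314, 1085 and 1052 (-0.47, limma adjusted p = 0.0336). Without the 3 wild types rich in choroid plexus markers, which leaves 1 wild type, the fold changes were about as large, at -0.81 for Sgk1 and -0.49 for Tsc22d3, while the adjusted p was 0.543 and 0.992 by limma, the highest over the alternatives (0.0165 and 0.0109 were the lowest). Both calls were also lost with the replicate block and without wild type replicate 2, 3 or 4 or mutant replicate 3, and that of Tsc22d3 without wild type replicate 1. At 15 months Sgk1 was at 0.14 (limma adjusted p = 0.803), and at -0.35 without mutant replicate 3 (limma adjusted p = 0.0382, against 0.0382 to 0.903 over the alternatives). At 15 months 1 of the 14 passed, against 6.02% of all genes. This was Klf9, which encodes a stress hormone-induced repressor and fell by 0.40 (limma adjusted p = 0.0483). The call was lost after correction for GC content and length (-0.22, limma adjusted p = 0.335, against 0.0135 to 0.335 over the alternatives). It was also lost with no filter and with TMM rescaling. The list's median was -0.02 at 5 months and 0.05 at 15 months.

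The 14 immediate early genes, transcribed within minutes of neuronal activity, had medians of opposite sign at the 2 ages. The median log2 fold change was -0.69 at 5 months and 0.89 at 15 months. At 5 months Npas4 alone passed the threshold (-0.72, limma adjusted p = 0.0359), where 2.27% of all genes did. At 15 months 7 passed as higher, where 6.02% of all genes passed, and 13 of the 14 had a positive fold change. Among the 7 were Fos (1.60, limma adjusted p = 0.0405), Npas4 (1.29, limma adjusted p = 0.0256), Dusp1 (1.17, limma adjusted p = 0.0405) and Arc (1.04, limma adjusted p = 0.0495). Without 5-month wild type replicate 2, 3 or 4 or mutant replicate 3, or with the replicate block, 0 passed at 5 months by limma. With all libraries, 11 of the 14 had an unadjusted p under 0.05 there, against 20.5% of all genes. Leaving out the libraries rich in choroid plexus left wild type replicate 2 alone at 5 months. The median was then -0.73, but a single library cannot show the part of choroid plexus, which was not tested. Without 5-month wild type replicate 1, 9 passed as lower, and without 5-month mutant replicate 1, 3 did. Calls over all genes at 5 months ran from 7 to 901 with 1 library left out, against 354 with all libraries. With GC content and length corrected, 5 passed as lower at 5 months and 1 as higher at 15 months, with medians of -0.78 and 0.73. That correction gave 869 and 27 calls over all genes. Leaving out any 15-month wild type, or 15-month mutant replicate 1, left 0 calls at 15 months by limma, with medians of 0.89 to 0.94. Again 11 had an unadjusted p under 0.05 at that age with all libraries, against 28.8% of all genes. Without 15-month mutant replicate 2, 12 passed as higher. With 15-month mutant replicate 3 left out, 8 passed as higher and 1 as lower, at a median of 0.64. Calls over all genes at 15 months ran from 1 to 1526 with 1 library left out, against 935 with all libraries. Per1 and Ciart had fold changes of the same signs as the medians of this list, negative at 5 months and positive at 15 months. The sums of neuron and astrocyte markers above also differed between the 5-month genotypes and the oligodendrocyte markers between the 15-month ones, and their part in these groups was not tested.

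The remaining genes of the clock loop had medians near 0. The 12 core loop genes had medians of 0.00 and -0.02 at 5 and 15 months. Of these genes, 0 passed at 5 months (2.27% of all genes) and 1 at 15 months (6.02% of all genes). That gene was Rora, which encodes the activator that opposes the REV-ERBs at Arntl. Rora was at 608, 730 and 630 in the 15-month wild types and 459, 421 and 376 in mutants, a log2 fold change of -0.65 (limma adjusted p = 0.0303). After correction for GC content and length it was -0.43 (limma adjusted p = 0.155, against 0.0187 to 0.155 over the alternatives). The 15-month calls of Rora, Klf9, Gsk3b, Rbm3 and Hsph1 were each lost as well when any 1 wild type of that age or mutant replicate 1 was left out.

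Clock, the partner of BMAL1, stood at 839 ± 10.9 (SD, n = 4) in the 5-month wild types, and mutants had 956 ± 260 (SD, n = 3). At 15 months Clock reached 1224 ± 14.8 in wild types, and mutants had 1010 ± 103 (SD, n = 3 each), a log2 fold change of -0.28 (limma adjusted p = 0.0793, against 0.0327 to 0.940 over the alternatives). It was 0.02 after correction for GC content and length, and -0.36 and past the threshold without mutant replicate 2. Npas2, which can stand in for CLOCK, had log2 fold changes of 0.22 and -0.02 at the 2 ages. Cry1 had 0.05 and 0.04 and Cry2 0.12 and 0.17, the cryptochromes being the partners of the PERIOD proteins. Bhlhe40, which encodes DEC1, had -0.13 and 0.00. Hlf, a PAR bZIP gene, had 0.17 and -0.12, and Nfil3, which encodes the D-box repressor E4BP4, had -0.16 and 0.26. None of these passed the threshold at either age.

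Of 6 kinases and ubiquitin ligases of the clock, 0 passed at 5 months (2.27% of all genes) and 1 at 15 months (6.02% of all genes). This was Gsk3b, a kinase that phosphorylates clock proteins, which was lower at 15 months (-0.30, limma adjusted p = 0.0497). After correction for GC content and length it was -0.09 (limma adjusted p = 0.591, against 0.0339 to 0.591 over the alternatives). The call was also lost with a pseudocount of 0.1, with no filter, with TMM rescaling and without 15-month mutant replicate 3. Of 6 further clock-controlled outputs, among which Hlf and Nfil3 count again, 0 passed at either age. Of 8 temperature-responsive genes, 0 passed at 5 months and 2 at 15 months, against the same shares of all genes. The cold-induced Rbm3 rose by 0.59 (limma adjusted p = 0.0415) and Hsph1, a heat shock chaperone, fell by 0.31 (limma adjusted p = 0.0341). Both calls were lost with GC content and length corrected (0.65 and -0.19, limma adjusted p = 0.0912 and 0.174, against at most 0.144 and 0.174 over the alternatives).

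The genes whose deviations were most like the mean of the 9 genes other than Arntl were named from 12074 non-member genes with a mean of at least 100, as a description. Sptlc1, a subunit of the enzyme that starts sphingolipid synthesis, had r = 0.93, Vapa, an endoplasmic reticulum contact protein, 0.90, the corepressor Tle1 0.90, Gpr137b-ps 0.87 and Tspan4 0.87. The most opposite were the splicing factor Prpf3 (-0.93), Anp32a (-0.92), Gkap1 (-0.88), the RNA-binding Hnrnpc (-0.88) and 2610008E11Rik (-0.86). None of these 10 is on the clock lists. They are the extremes of a ranking in which r was -0.66 at the 1 percentile and 0.66 at the 99 percentile. The mean of the 9 genes, each divided by its SD, was farthest from 0 in 5-month wild type replicate 3, at -1.21. Clock had r = -0.43 with the same mean, at the 7.42 percentile of the genes ranked, and Nfil3, Cry1, Cry2, Hlf, Npas2 and Bhlhe40 lay between -0.14 and 0.20.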

How the data were processed

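Normalized counts of 13 mouse hippocampal libraries were analysed. As deposited, the signal is the normalized count of a gene, from Salmon 0.11.1 on mm10 and DESeq2 as run by the authors, in 1 table per age. The reads behind each value could not be recovered, so no depth or counting error is given. Fields were read at runs of tabs, and 0 columns belonged to no sample of the labels. Levels were not tested between ages, since each age had a normalization of its own.

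The genotype effect within each age, and its difference between ages over all libraries, were fitted with limma 3.58.1 in R 4.3.3 (eBayes with a trend, two-sided) on log2(normalized count + 1), keeping genes whose mean reached 10, with Benjamini-Hochberg adjustment. A fold change on that scale understates that of low genes. Correlations used Python 3.11.15, numpy 2.4.6, scipy 1.17.1 and pandas 2.3.3, and plots matplotlib 3.10.9. On simulated data limma recovered 80% of 200 genes changed by 1 (log2) among 15527 at 5 months, 76.5% among 15534 at 15 months and 80% changed by 1.5 among 15264 for the difference. Of its calls 12.6%, 8.93% and 11.6% were false, above the nominal 5%. At an unadjusted p under 0.05, the permutation test recovered 82.5% of 200 simulated pairs with a strong negative relation and called 2.5% of unrelated ones. The Benjamini-Hochberg adjustment was not part of that simulation, so recovery under it is not known.

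The members, gene lists and markers were chosen with earlier results of these data known. Named genes were all members, 7 clock partners and, per list, up to 4 genes with an adjusted p under 0.05 at either age. The genes of likeness were the 5 highest and 5 lowest. The correlation with gene lists, and the fit without libraries of high choroid plexus markers, were chosen after the data were seen. Positions, lengths and GC content come from GENCODE M21 (GRCm38), matched by symbol for 24399 genes. Nothing in the sources says that libraries came from separate litters or days, and p-values measure the spread between these libraries. Alternatives were pseudocounts of 0.1 and 10, no filter, a mean of at least 100, TMM rescaling, the replicate number as a block term, a loess correction for GC content and length (span 0.3), both together, and each library left out.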

Additional observations from a re-analysis of the deposited data

Results flagged for a closer look

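Tsc22d3 was examined with the other named genes in the 4 wild types of 5 months. Replicate 3, at 1530 normalized counts, lay apart from the others at 1599 to 1612, with a gap of 0.838 of the group's range, above Dixon's critical value for 4 samples. This was 1 of 28 genes examined, where chance gives about 1.4.

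The genotype effect differed between ages for Fos (3.27 on the log2 scale, 15 minus 5 months, limma adjusted p = 0.0291, at most 0.0886 over the alternatives), Npas4 (2.01, limma adjusted p = 0.00553, at most 0.0851) and Dusp1 (2.01, limma adjusted p = 0.0325, at most 0.0972), each with a negative fold change at 5 months and a positive one at 15 months. Fos and Dusp1 lost this call with the replicate block and without any of several single libraries, 5-month wild type replicates 2, 3 and 4 and every 15-month wild type among them, as they did without the libraries rich in choroid plexus. Npas4 lost the call only without the latter, and its difference was then 2.03. That fit leaves wild type replicate 2 alone at 5 months, so calls lost in it cannot be judged. For Hsph1 the difference was -0.50 (limma adjusted p = 0.0264, at most 0.192), with mutants higher at 5 months and lower at 15 months in every library, and the call was lost with the block, without 5-month mutant replicate 3, without any 15-month wild type, without 15-month mutant replicate 1 and without the libraries rich in choroid plexus, where it was -0.52. None of the 10 clock output genes met these criteria.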

How the results depend on the processing

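No clock output gene passed under the pseudocounts, filters, TMM, GC and length correction or replicate block. Removal of the 4 libraries rich in choroid plexus markers left wild type replicate 2 alone at 5 months, so its calls are given for 15 months only. There, 0 clock output genes passed. Leaving out 1 library gave 0 to 1 calls at 5 months, 0 to 1 at 15 months and 0 to 3 for the difference between ages. Same-numbered libraries of the genotypes correlated at -0.09 to 0.17 in their deviations, so the numbers were not taken as pairs. The replicate block left 0 clock genes and moved all genes called from 354 to 9, from 935 to 1595 and from 268 to 3. At 5 months the block takes wild type replicate 4, which has no mutant of that number, out of the comparison. Its fold changes there are those without that library. Over all genes, GC and length correction gave 869, 27 and 142 calls. At 15 months no filter gave 578, and removal of the library rich in choroid plexus gave 1515. Single libraries left out gave 7 to 901, 1 to 1526 and 34 to 2111. Of 270 fold changes of clock genes under the other settings, 253 kept their sign and side and 17 turned, none of them a called value. After GC and length correction, with or without the block, the 15-month fold changes were -0.039 for Tef, 0.023 for Arntl and 0.11 for Bhlhe41. Differences between ages became -0.089 for Dbp, -0.12 for Nr1d1 and 0.057 for Nr1d2 with that correction, and -0.17, -0.20 and 0.041 with the block added. The block alone gave 0.031 for Tef and -0.045 for Nr1d1, and TMM gave 0.014 for Tef. Without the libraries rich in choroid plexus, Arntl at 5 months was -0.024 and the difference for Tef 0.043. With 1 library left out, the sign turned within -0.14 to 0.25 for Dbp, -0.11 to 0.14 for Tef and -0.067 to 0.12 for Arntl at 5 months, and within -0.14 to 0.019 for Per2 and -0.017 to 0.094 for Tef at 15 months. For the difference between ages it turned within -0.013 to 0.44 for Per3, -0.062 to 0.33 for Dbp, -0.11 to 0.14 for Tef, -0.045 to 0.16 for Nr1d1 and -0.26 to 0.10 for Nr1d2. Correlated pairs called numbered 1, but 0 after GC and length correction and 0 to 2 with 1 library left out; fewer orders exist then. Per1 with the glucocorticoid-induced list kept its call throughout (r = 0.72 to 0.95). The causes were not tested. The reads behind each value could not be recovered, and 3 or 4 libraries per group limit the precision.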
